A study of Drosophila melanogaster with 9 samples.

Results

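Distal regions that were accessible in ovarian somatic cells (OSCs), and at which no peak was called in whole ovaries, were examined in ATAC-seq data from Drosophila melanogaster. ATAC-seq uses a transposase that inserts sequencing adapters into open DNA, and stretches with many insertions are called as peaks. The regions were chosen by peak calls alone. Overlapping peaks of the 9 libraries were joined, which gave 75937 intervals, and 26518 of these lay more than 1 kb from every annotated transcription start site (TSS) and outside coding sequence. Of the distal intervals, 777 (2.93%) had a peak with a −log10 q of at least 10 in each of the 4 OSC libraries and no peak in any of the 5 ovary libraries, where q is the p-value adjusted by the peak caller. The presence of a strong OSC peak and the absence of an ovary peak are therefore the definition of the 777 regions and not a result.

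OSCs are a cultured female line of follicle cell origin without germ cells, and 50000 cells were used for each library. The 4 OSC libraries came from wild-type cells (2 libraries) and from a line in which the l(3)mbt gene, which encodes a chromatin repressor, was knocked out (2 libraries). The ovary libraries came from w1118 flies (2 libraries of 6 ovaries) and from a vas-GFP strain, w[*]; TI{TI}vas[AID:EGFP], which carries EGFP at the germline gene vas (3 libraries with 6, 10 and 30 ovaries). OSCs were grown in medium with serum, fly extract and insulin, and whether the knockout line is a single clone is not given in the sources used here. Ages of the flies were not given. The study describes its ATAC-seq replicates as distinct samples, and whether these were separate cultures or crosses is not given in the sources used here. The libraries differed widely in the number of called peaks, from 22037 to 59420 in OSCs and from 16588 to 24890 in ovaries. The promoters of tj, fs(1)Yb, Fas3, piwi and zfh1, which mark ovarian somatic cells, were open in all 4 OSC and all 5 ovary libraries. At the germline genes AGO3, osk, aub, bam and vas the promoter was open in 0, 1, 3, 3 and 4 OSC libraries, respectively, and in each of the 5 from ovaries. The OSC counts pool wild-type and knockout libraries, and the paper reported a more accessible vas promoter in the knockout. They therefore do not describe wild-type OSCs alone. Markers of other tissues went in both directions. Of the muscle genes, Mlc2, up, Mhc and bt had a promoter peak in 4, 3, 2 and 0 OSC libraries and in 5, 5, 2 and 4 ovary libraries. The hemocyte genes srp, Hml and NimC1 had one in 4, 3 and 1 OSC and in 5, 0 and 2 ovary libraries, and the neuron genes elav, brp, nSyb and Syt1 in 4, 3, 1 and 1 OSC and in 5, 0, 0 and 0 ovary libraries. The fat body genes Yp1, Lsp2 and Fbp1 had one in 3, 2 and 1 OSC and in 5, 0 and 0 ovary libraries. Yp1 is also on the list of eggshell and yolk genes used below, so it does not mark fat body alone.

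Distal regions of open chromatin include enhancers, to which sequence-specific transcription factors bind and displace nucleosomes, and insulators and silencers also appear as such regions. Enhancers are commonly open in some cell types and closed in others, whereas many promoters are open in most cells. In the ovary the follicle cells form an epithelium around the germ cells, and they are patterned by Wnt, JAK/STAT, EGFR, Notch, BMP and ecdysone signalling. A whole ovary holds many kinds of cell, so that a region which is closed in the ovary and a region which is open in too few of its cells to be called cannot be told apart.

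The sequence around the summits is shown first, because the 777 regions differed from other distal regions in the short words that they held. Each window below spans 300 bp around the median summit of the OSC libraries on the plus strand of dm6. The 8 regions were picked, after their values were seen, from those that the results turn on, and they lie on 2L, 3L, 3R and X. Capitals mark every match to TAAACA or its reverse complement TGTTTA, the core of the sites bound by forkhead-domain factors, and every match to AGAGAG or its reverse complement CTCTCT, the repeat bound by GAGA factor. The windows are chr3L:18281001-18281300, chr2L:5262198-5262497, chr2L:13554691-13554990, chr3L:16026164-16026463, chr3L:8842076-8842375, chrX:18982111-18982410, chr3R:26549234-26549533 and chr3L:5840343-5840642, in the order in which they are given.
CG5103: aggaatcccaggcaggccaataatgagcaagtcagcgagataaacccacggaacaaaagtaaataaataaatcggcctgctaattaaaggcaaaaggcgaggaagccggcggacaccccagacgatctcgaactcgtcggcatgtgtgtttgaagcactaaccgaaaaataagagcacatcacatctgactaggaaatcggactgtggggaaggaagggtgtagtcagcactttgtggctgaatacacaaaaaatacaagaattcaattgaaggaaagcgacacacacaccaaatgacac
tkv: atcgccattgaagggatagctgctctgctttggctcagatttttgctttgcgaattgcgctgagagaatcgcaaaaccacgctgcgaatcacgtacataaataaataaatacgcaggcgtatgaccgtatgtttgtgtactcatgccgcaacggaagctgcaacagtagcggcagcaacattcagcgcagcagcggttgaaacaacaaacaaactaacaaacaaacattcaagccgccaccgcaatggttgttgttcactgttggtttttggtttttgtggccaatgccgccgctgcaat
kuz: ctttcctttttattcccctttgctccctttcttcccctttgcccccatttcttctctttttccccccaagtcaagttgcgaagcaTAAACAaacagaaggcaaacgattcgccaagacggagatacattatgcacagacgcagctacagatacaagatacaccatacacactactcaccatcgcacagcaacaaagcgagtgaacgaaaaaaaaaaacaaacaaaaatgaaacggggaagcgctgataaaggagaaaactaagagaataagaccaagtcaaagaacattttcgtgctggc
Notum: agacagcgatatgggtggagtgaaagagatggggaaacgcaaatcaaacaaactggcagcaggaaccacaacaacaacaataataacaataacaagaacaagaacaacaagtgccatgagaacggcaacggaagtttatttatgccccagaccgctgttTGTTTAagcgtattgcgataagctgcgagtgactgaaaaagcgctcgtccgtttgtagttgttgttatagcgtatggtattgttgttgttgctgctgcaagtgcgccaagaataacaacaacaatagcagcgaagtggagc
dally: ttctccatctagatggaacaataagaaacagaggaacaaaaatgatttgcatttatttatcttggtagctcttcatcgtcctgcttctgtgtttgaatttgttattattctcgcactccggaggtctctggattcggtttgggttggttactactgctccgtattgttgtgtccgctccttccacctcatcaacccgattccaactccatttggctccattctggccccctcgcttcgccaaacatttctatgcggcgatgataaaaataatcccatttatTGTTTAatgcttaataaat
CG43759: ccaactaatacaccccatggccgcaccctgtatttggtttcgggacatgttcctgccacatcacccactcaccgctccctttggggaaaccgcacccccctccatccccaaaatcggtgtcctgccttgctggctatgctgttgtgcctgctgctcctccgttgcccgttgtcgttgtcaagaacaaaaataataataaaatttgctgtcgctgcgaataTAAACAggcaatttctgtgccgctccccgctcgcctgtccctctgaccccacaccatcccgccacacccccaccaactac
scrib: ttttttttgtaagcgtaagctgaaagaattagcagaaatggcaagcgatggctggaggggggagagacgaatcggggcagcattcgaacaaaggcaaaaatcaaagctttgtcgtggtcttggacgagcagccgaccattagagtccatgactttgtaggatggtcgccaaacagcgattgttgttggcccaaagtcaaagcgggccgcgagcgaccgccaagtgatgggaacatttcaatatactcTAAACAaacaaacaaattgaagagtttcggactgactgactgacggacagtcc
vn: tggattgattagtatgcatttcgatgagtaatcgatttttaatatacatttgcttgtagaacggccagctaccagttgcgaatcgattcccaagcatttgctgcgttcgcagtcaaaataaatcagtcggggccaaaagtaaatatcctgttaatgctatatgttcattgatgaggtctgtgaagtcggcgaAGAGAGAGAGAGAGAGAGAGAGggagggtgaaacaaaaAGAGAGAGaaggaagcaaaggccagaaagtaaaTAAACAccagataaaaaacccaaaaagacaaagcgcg

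The windows at kuz, Notum, dally, CG43759, scrib and vn each held 1 forkhead word. The picked windows thus held it more often than the 777 regions as a whole, of which 41.2% did. Only vn among these 8 windows held the GAGA word, with 11 partly overlapping matches, and the windows at CG5103 and tkv held neither. For comparison, the windows of 2 distal regions that were open in every library are given, at chr3R:16764072-16764371 and chr3R:16702931-16703230 in the bithorax complex of homeotic genes. They had the highest lowest-of-9 fold enrichment among regions on these chromosome arms whose windows held the GAGA word, with 4 and 3 matches, and neither held the forkhead word.
lncRNA:bxd: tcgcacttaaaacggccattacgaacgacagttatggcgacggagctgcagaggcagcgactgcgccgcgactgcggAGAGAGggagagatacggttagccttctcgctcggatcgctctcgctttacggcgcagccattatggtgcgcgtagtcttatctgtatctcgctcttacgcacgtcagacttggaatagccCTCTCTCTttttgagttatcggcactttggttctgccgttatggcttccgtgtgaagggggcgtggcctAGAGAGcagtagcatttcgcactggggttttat
Ubx: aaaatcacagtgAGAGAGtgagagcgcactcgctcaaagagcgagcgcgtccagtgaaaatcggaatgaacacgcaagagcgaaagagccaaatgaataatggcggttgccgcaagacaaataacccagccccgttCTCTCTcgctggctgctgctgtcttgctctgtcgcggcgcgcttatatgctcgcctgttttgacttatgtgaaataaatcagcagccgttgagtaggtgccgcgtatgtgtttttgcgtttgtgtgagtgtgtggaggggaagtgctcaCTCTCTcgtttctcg

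The comparison set throughout was the 656 distal intervals that passed the same OSC threshold and had a peak in all 5 ovary libraries. Shares of the sets are given as counts, without a test. TAAACA or TGTTTA was found in 320 of the 777 OSC-only windows (41.2%) and in 165 of the 656 windows open in every library (25.2%). The order was the same on the chromosomes that were not used to choose the word. Of 2080 six-base words counted with their reverse complements, TAAACA had the largest excess on chromosome 3, with 43.5% of 347 OSC-only windows against 28.0% of 268 windows open in every library. On the other chromosomes it again ranked first, with 39.3% of 430 against 23.2% of 388, and 26.4% of 273 ovary-only windows there held it. The ovary-only windows come from the 520 distal intervals with a −log10 q of at least 10 in all 5 ovary libraries and no OSC peak. These intervals were narrow, with a median width of 94.5 bp, and all distal intervals had a median of 152 bp. The medians were 472 bp for OSC-only regions and 541 bp for regions open in every library. Most windows of the narrow sets thus reached beyond the called peak, which limits every comparison of words, motifs and GC content with them. By the lowest-of-4 fold enrichment, the word stood in 46.2%, 47.4%, 33.5% and 37.6% of the OSC-only regions from the strongest to the weakest class of 194 or 195. The same classes of the regions open in every library, of 164 each, had 22.0%, 22.6%, 29.9% and 26.2%. The share was thus higher in the stronger classes of the OSC-only regions and in the weaker classes of the others, without a steady fall or rise.

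The GAGA repeat showed the opposite order. AGAGAG or CTCTCT was found in 131 OSC-only windows (16.9%) and in 315 windows open in every library (48.0%). On chromosome 3 the shares were 16.4% and 50%, and on the other chromosomes 17.2% and 46.6%, the lowest rank of the 2080 words in each case. Ovary-only windows on the other chromosomes were as poor in this word as the OSC-only windows, at 15.4%. From the strongest to the weakest class by OSC fold, the share was 61.0%, 43.9%, 49.4% and 37.8% among the regions open in every library and 14.4%, 18.04%, 17.5% and 17.5% among the OSC-only regions. Of the 10 words with the largest excess on chromosome 3, 8 also had an excess on the other chromosomes, and all 10 words with the largest deficit had a deficit there. The 10 words in excess were all rich in A and T, so the excess was not limited to the forkhead word. AATAAA and AAACAA had excesses of 13.5 and 13.4 percentage points on chromosome 3, against 15.5 for TAAACA. On the other chromosomes the 3 values were 9.88, 8.32 and 16.1.

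Matches to 31 motifs of known factors were counted on both strands of the same windows. A match is a description of the letters and not a binding site. TGTTTAC, a longer forkhead site that contains the word TGTTTA, was found in 12.5% of OSC-only windows, 8.38% of windows open in every library, 5.77% of ovary-only windows and 6.36% of all 26518 distal windows. GGAATG, the site of the Hippo pathway factor Scalloped (TEAD), was found in 17.2%, 13.1%, 12.9% and 15.9% of the same sets. ATCAAAG, the site of Pangolin (TCF), the nuclear factor of Wnt signalling, was found in 7.34%, 4.57%, 4.04% and 4.68%. These sites were commoner in the OSC-only windows than in each of the other sets, as were 8 of the 31 motifs in all.

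AACAAT, a Sox site and another of the 8, was found in 31.1% of OSC-only windows, 25.9% of windows open in every library, 30.4% of ovary-only windows and 25.4% of all distal windows, but off chromosome 3 the first 2 shares were 26.3% and 27.3%. The remaining 4 of the 8 had smaller differences from the regions open in every library and are named after their values were seen. They were TGCTGAC, a core site of large Maf factors such as Traffic jam (7.21% against 5.79%), GTGGGAA, the site of the Notch pathway factor Suppressor of Hairless (5.28% against 4.12%), TGANTCA, the AP-1 site (9.91% against 8.99%), and ATCGATA, the Dref site (3.22% against 2.896%). In the wider set of 1968 intervals the Maf and AP-1 sites were found in 7.22% and 10.2%, so neither was particular to the OSC-only regions. GCCAT, the site of the Polycomb recruiter Pleiohomeotic, was found in 47.5% of OSC-only windows and 43.1% of windows open in every library. Both shares were below the 54.2% of all distal windows. TAATTA, a homeodomain site, was found in 8.24% and 5.34%, and in 16.9% of ovary-only windows.

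The motifs that were scarcer in OSC-only windows than in windows open in every library were led by GAGAGAG. This GAGA factor site, which contains AGAGAG, was found in 8.49% against 28.4%. Ovary-only windows held it in 4.81% and all distal windows in 6.60%, both below the OSC-only share. The windows open in every library thus stood apart from the other 3 sets. The site of Ovo, a zinc-finger factor of the female germline, was searched as CCGTTA and, more loosely, as CNGTTA, which includes it. CCGTTA was found in 3.47% of OSC-only windows, 7.62% of windows open in every library and 5.96% of ovary-only windows. CNGTTA was found in 18.4%, 29.7% and 29.8% of these sets, so that the OSC-only windows were the poorest of the 3. CACGTG, a Myc-type E-box, had 1.54% against 5.34%, CAGGTG, an E-box bound by Snail-type and Zfh1 factors, 1.67% against 4.73%, and AGGTCA, the core site of nuclear receptors, 3.73% against 6.55%. All distal windows held these last 3 motifs in 4.86%, 10.3% and 6.59%. The median GC content of the windows was 45.0% in OSC-only regions, 46.3% in regions open in every library and 40.3% in ovary-only regions.

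**Figure D1:**
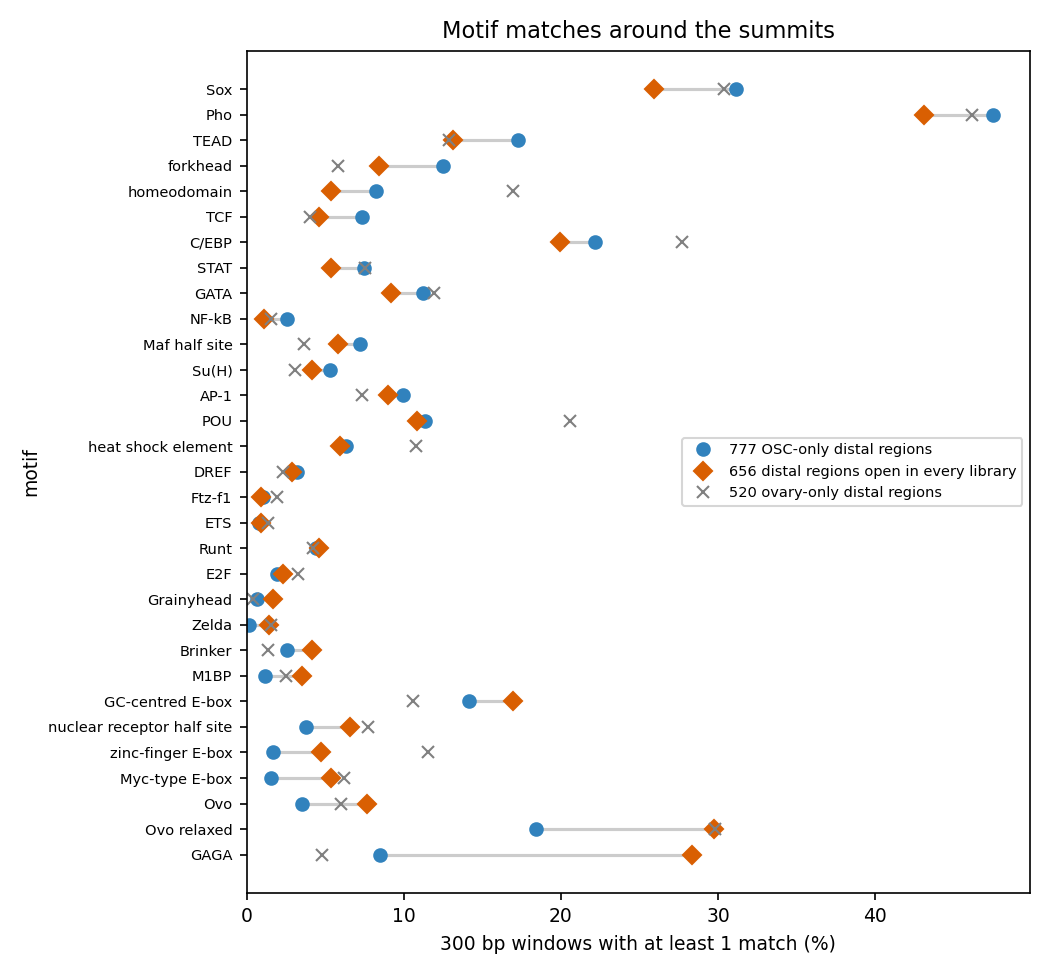
Share of 300 bp windows with at least 1 match to each of 31 motifs (x axis, percent) in the 777 OSC-only regions (circles), the 656 distal regions open in every library (diamonds) and the 520 ovary-only regions (crosses), ordered by the difference between the first 2. GAGA has the widest gap, 8.49% against 28.4%. The forkhead site is commoner in the OSC-only regions (12.5%) than in the regions open in every library (8.38%) and the ovary-only regions (5.77%).

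The absence of an ovary peak was much commoner among distal intervals than near promoters. Of 9143 intervals with a −log10 q of at least 10 in all 4 OSC libraries, 1112 (12.2%) had no ovary peak. The share was 4.34% for the 7074 intervals within 1 kb of a TSS (307 intervals) and 39.5% for the 1968 distal intervals. The gap was present in each of the 6 strength classes. Where the weakest OSC library had a fold enrichment under 3, 47.3% of 264 distal and 4.94% of 1052 promoter intervals lacked an ovary peak, and at a fold of 8 or more 21.1% of 114 and 1.31% of 459 did. Fold enrichment is the ratio of the pileup at the summit to the local background of the same library, and it was not scaled between libraries.

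**Figure D2:**
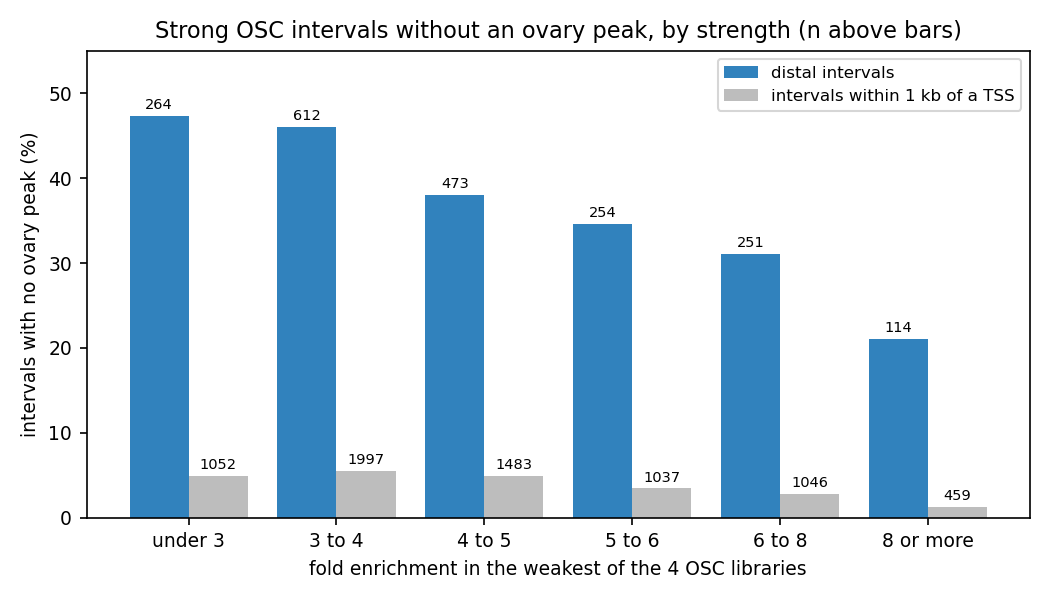
Share of strong OSC intervals without an ovary peak (y axis, percent) by the fold enrichment in the weakest of the 4 OSC libraries (x axis), for distal intervals (blue) and intervals within 1 kb of a TSS (grey), with the number of intervals above each bar. Distal intervals lie between 21.1% and 47.3%, and promoter intervals between 1.31% and 5.56%.

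The median fold enrichment of the 777 regions was 4.67 and 4.82 in the wild-type libraries and 4.54 and 5.24 in the knockout libraries. The regions open in every library had medians of 5.42, 5.15, 4.96 and 5.76 in the same OSC libraries and between 5.87 and 7.51 in the ovary libraries. The lowest of the 4 OSC values had a median of 3.92 over the 777 regions, with a range from 1.895 to 12.96. The weakest called peaks of the ovary libraries, those with a −log10 q under 2, had median folds of 2.21 to 2.54. Since the regions were chosen by a high −log10 q and folds are not scaled between libraries, these levels do not show whether a region of that strength would have been called in ovaries. The summits of the 4 OSC libraries lay within 50 bp of each other at 399 regions (51.4%).

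**Figure D3:**
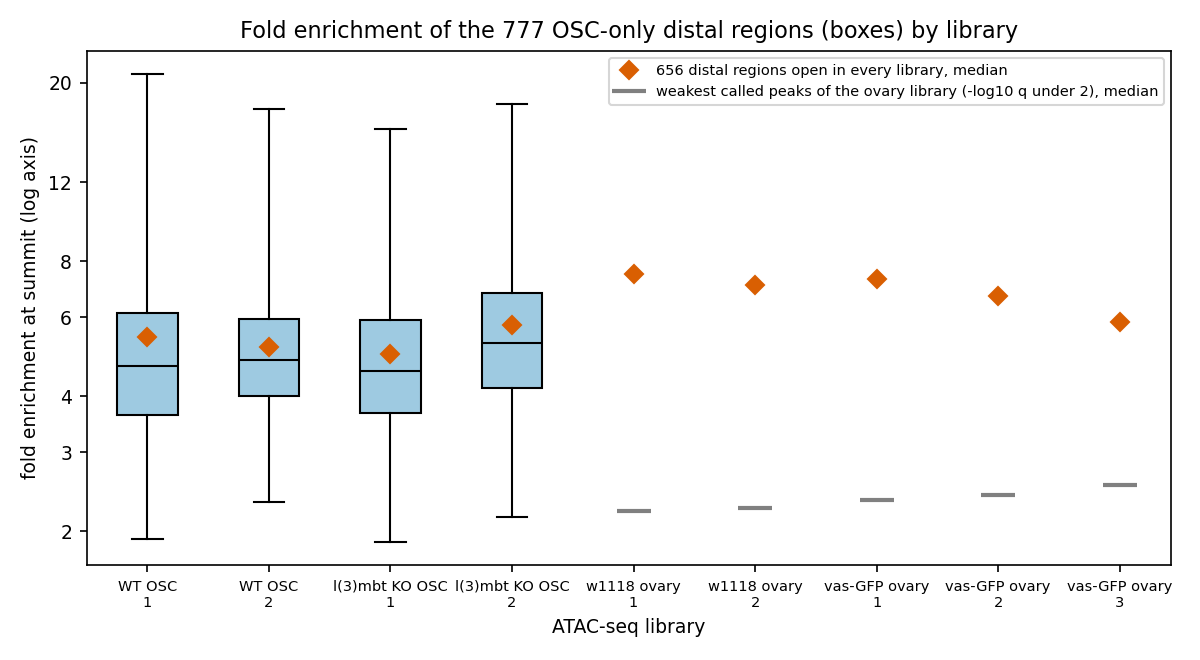
Fold enrichment at the summit (log axis) of the 777 OSC-only regions in the 4 OSC libraries (boxes: quartiles and median, whiskers: lowest and highest), with the median of the 656 regions open in every library (diamonds) and of the weakest called peaks of each ovary library (grey bars). The box medians of 4.54 to 5.24 lie below the diamond of the same OSC library, and the grey bars lie at 2.21 to 2.54.

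At the threshold itself, the members with the lowest qualifying −log10 q lay in an intron of Swim (10.03), beside lncRNA:CR45568 (10.06) and beside foxo (10.06). The closest intervals outside it lay in an intron of px (9.999) and beside Ppr-Y (9.994) and CG7560 (9.970), with lowest folds of 2.74, 3.22 and 2.83 against 2.72, 2.30 and 3.05 for the 3 inside.

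By position, 497 of the OSC-only regions (64.0%) had their midpoint in an intron, 268 (34.5%) were intergenic, 10 were in a UTR and 2 in another exon. Regions open in every library were intronic in 73.02% and intergenic in 21.8%. The OSC-only regions lay farther from genes' starts, with a median distance to the nearest TSS of 5148 bp against 3500 bp, and 24.8% against 13.6% were more than 10 kb away. For all distal intervals the median was 4984 bp and the share 24.8%, so that the OSC-only regions were placed like distal intervals in general. Their median width was 472 bp (96 to 1756 bp). Chromosome X held 18.9% of the OSC-only regions, 23.3% of the regions open in every library and 19.8% of all distal intervals.

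Each region was assigned to the gene that contains its midpoint or otherwise to the gene of the nearest TSS, which does not show that it acts on that gene. The promoter of the assigned gene had a peak in all 5 ovary libraries for 525 OSC-only regions (67.6%), compared with 85.5% of regions open in every library, 76.5% of the 1968 distal intervals with the same OSC threshold, 60.3% of all distal intervals and 43.8% of all 18277 genes. With the nearest TSS used for every region the OSC-only share was 56.0%. The promoter was open in all 4 OSC and in no ovary library for 35 regions (4.50%). This share was near the 3.42% of all distal intervals and the 3.65% of ovary-only regions. It was 0.915% for regions open in every library and 2.36% for all genes.

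The 777 regions fell to 524 genes, of which 379 had 1 region, 60 had 3 or more and 14 had 5 or more. Genes with a region were long, with a median of 19668 bp, against 19687 bp for the 445 genes with a region open in every library and 1646 bp for all genes. Of the 524 genes, 133 also had a region open in every library, and 300 had no other strong distal region in OSCs. The highest count, 9, fell to the 30 bp ribosomal RNA gene 2SrRNA:CR45864 on X, only because its TSS was the nearest. These 9 regions were intergenic and lay 35736 to 102197 bp from that TSS, and the placement of reads there was not tested. This gene was followed by CG43759 and inv with 7 regions each and by bab1 with 6.

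Of the genes with most regions, inv encodes a homeodomain factor of the engrailed locus, and its 7 regions formed the longest run, with gaps under 10 kb, over 20761 bp of 2R (11483115 to 11503875). Their lowest-of-4 folds lay between 3.37 and 6.28. CG43759 had 7 regions on X, 5 of them in a run of 10222 bp (18972399 to 18982620), and at the strongest of these the 4 OSC folds were 9.98 and 6.92 in wild type and 8.36 and 8.60 in the knockout. px, dally, Ten-a, mamo, Tet, CadN, pnt, CG42238, Myo81F and lncRNA:CR45935 had 5 regions each. Several of these genes are long, such as Ten-a with 291517 bp, mamo with 144412 bp and CadN with 131288 bp, and a long gene contains more regions by the way they were assigned. Ten-a and CadN encode adhesion proteins, mamo a zinc-finger factor of germline development, Tet a DNA-modifying dioxygenase and pnt the ETS factor downstream of EGFR. croc, which encodes a forkhead-domain factor, had 4 regions and none open in every library. Clustering was not particular to the OSC-only regions, since 41.3% of them and 43.4% of the regions open in every library lay within 10 kb of another of the same kind.

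Genes of the Wnt pathway held 21 OSC-only regions and no region that was open in every library, and 1 of the genes had ovary-only regions. Of the 17 Wnt genes on the list, 9 (52.9%) had an OSC-only region, compared with 2.87% of all genes and 16.6% of all genes of at least 10 kb, and 7 of the 11 Wnt genes of that length had one. The promoters of all 9 genes were open in all 4 OSC and all 5 ovary libraries. The list was one of 18 that were compared by counts, with no test.

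Among the ligands, wg, the founding Wnt ligand, had 1 intronic region (2L 7313287 to 7313588) with folds of 3.05 and 4.16 in wild type and 3.50 and 4.59 in the knockout. Wnt6, another ligand, had 1 region (2L 7331535 to 7331900) with folds of 4.26 and 3.69 in wild type and 4.93 and 5.36 in the knockout. These regions ended a run of 5 over 18614 bp, and the 3 between them lay beside lncRNA:CR45304.

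Among the receptors, fz2 had 4 intronic regions, fz had 3 and fz3 had 1. The strongest fz2 region (3L 19162586 to 19163016) had folds of 6.86 and 5.85 in wild type and 5.85 and 5.73 in the knockout. The fz3 region on X was the weakest of the 21, with folds of 2.14 and 2.93 in wild type and 3.13 and 2.80 in the knockout. dally and dlp encode the glypicans that bind Wnt and BMP ligands at the cell surface. dally had 5 regions, of which 3 formed a row upstream of the gene (3L 8820979 to 8822242). The strongest dally region, in an intron (3L 8842010 to 8842784), had folds of 8.94 and 7.03 in wild type and 7.98 and 8.28 in the knockout, and its window is printed above.

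Among the inhibitors, Notum encodes an enzyme that inactivates Wnt ligands and is itself a common Wnt target, and nkd encodes a feedback inhibitor inside the cell. The Notum region (3L 16026074 to 16026565) had folds of 7.34 and 7.21 in wild type and 7.06 and 10.3 in the knockout. The strongest of 4 nkd regions (3L 19046673 to 19047516) had folds of 9.05 and 6.69 in wild type and 8.44 and 8.22 in the knockout. At Notum, dally and nkd the values of the genotypes overlapped.

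Of 20 follicle cell transcription factor genes, 11 (55%) had an OSC-only region, against 2.87% of all genes, and of the 13 with at least 10 kb, 10 had one (76.9%), against 16.6%. The 11 genes had a total of 20 OSC-only regions. Of the 20 genes, 7 had a region open in every library and 4 had an ovary-only region. bab1, a BTB factor needed in terminal filament cells, had 6 regions and pnt had 5, while br, Eip74EF, mirr, ct, eya, bab2, chinmo, mid and H15 had 1 each. The strongest was in an intron of chinmo, a BTB factor of stem cell lineages (2L 1686831 to 1687458), with folds of 8.14 and 6.85 in wild type and 6.35 and 8.22 in the knockout. It was followed by an intergenic bab1 region (3L 1118546 to 1118875), with 8.71 and 5.97 in wild type and 7.13 and 8.25 in the knockout. The T-box gene mid had a region (2L 5468631 to 5469056) with 5.76 and 5.56 in wild type and 7.40 and 9.47 in the knockout. tj and zfh1, whose promoters were open in every library, had no OSC-only region.

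In the lists of cell surface and matrix genes, 7 of 18 adhesion and polarity genes (38.9%) had 1 OSC-only region each, against 2.87% of all genes. Of those with at least 10 kb, 42.9% had one, against 16.6%. Ovary-only regions were found at as many of the 18 genes, 7, and regions open in every library at 2. The genes with an OSC-only region were Nrg, dlg1, scrib, ed, mys, mew and Cad99C. The scrib region, in an intron of this basolateral polarity gene (3R 26549219 to 26549991), had folds of 7.70 and 6.78 in wild type and 6.42 and 6.30 in the knockout. Of 13 basement membrane and extracellular matrix genes, 2 had an ovary-only region and none had a region open in every library. OSC-only regions were found at vkg, LanB1, trol and Ppn, with 1 each (30.8% of the genes, and 42.9% of those of at least 10 kb). The strongest of these, in trol, the perlecan gene (X 2542360 to 2543071), had folds of 5.75 and 5.00 in wild type and 4.36 and 5.01 in the knockout.

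EGFR and receptor tyrosine kinase genes had OSC-only regions at 9 of 23 genes and regions open in every library at 9. InR, the insulin receptor gene, had the strongest (3R 21608170 to 21608772), with folds of 9.18 and 8.43 in wild type and 7.92 and 7.97 in the knockout. vn, which encodes an EGFR ligand, had 1 region (3L 5840297 to 5841026), with 5.58 and 6.35 in wild type and 6.88 and 6.98 in the knockout. Ecdysone genes had OSC-only regions at 8 of 18 genes and regions open in every library at 12, with 4 of each kind at the receptor gene EcR. Notch genes had OSC-only regions at 3 of 11 genes, N, mam and kuz, and regions open in every library at 6. Ovary-only regions were found at 2 EGFR and receptor tyrosine kinase, 5 ecdysone and 0 Notch genes. The OSC-only shares of these lists, in that order, were 39.1%, 44.4% and 27.3%, against 2.87% of all genes. Among genes of at least 10 kb the shares were 50%, 53.8% and 42.9%, against 16.6%. The kuz region whose window is printed above, in an intron of this ADAM protease gene (2L 13554495 to 13555132), had folds of 15.6 and 8.09 in wild type and 12.1 and 10.98 in the knockout.

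JAK/STAT genes had OSC-only regions at 3 of 9 genes, the ligand gene upd1, Stat92E and Ptp61F. Hedgehog genes had them at 3 of 9, which were all 3 genes of at least 10 kb on that list, the ligand gene hh with 2 regions and the receptor genes ptc and boi with 1 each. BMP and activin genes had them at 3 of 15, tkv, Dad and shn, and the strongest was in an intron of the type I receptor gene tkv (2L 5262046 to 5262864), with folds of 9.05 and 9.39 in wild type and 9.06 and 8.50 in the knockout. Hippo genes had them at 3 of 19, wts, kibra and ds, and JNK and AP-1 genes at 1 of 14, Atf3. Regions open in every library were found at 2, 1, 2, 2 and 4 genes of these 5 lists in the same order, and ovary-only regions at 1, 0, 3, 0 and 2. The OSC-only shares in that order were 33.3%, 33.3%, 20%, 15.8% and 7.14%, against 2.87% of all genes. Among genes of at least 10 kb they were 66.7%, 100%, 42.9%, 30% and 14.3%, against 16.6%, so the JNK and AP-1 share was below that of all long genes.

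The 15 genes of the somatic and shared piRNA pathway and the 14 eggshell and yolk genes had 0 OSC-only regions, and these lists held 1 and 0 genes of at least 10 kb. In the lists for other cells, the 15 germline genes had 1 region (6.67% of the genes), in an intron of AGO3 over an annotated F element, the 10 muscle genes had 1 (10%), at Act57B, and the 12 neuron genes had 1 (8.33%), at nrm. Of 7 hemocyte genes, srp and ush had 1 region each (28.6%). These shares were above the 2.87% of all genes. Among genes of at least 10 kb, a region was found at 1 of 5 germline, 0 of 6 muscle, 1 of 11 neuron and 2 of 5 hemocyte genes (20%, 0%, 9.09% and 40%), against 16.6% of all genes of that length.

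**Figure D4:**
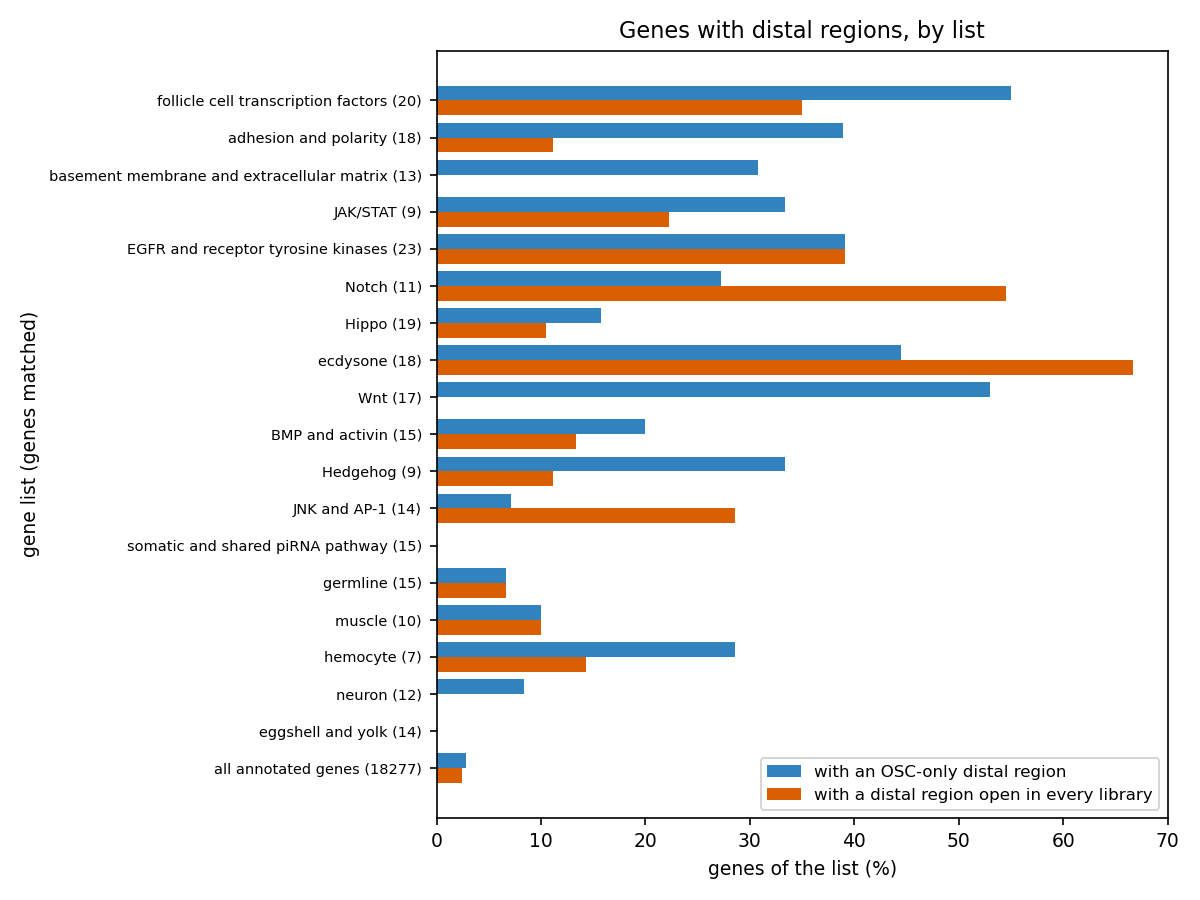
Share of the genes of each list (x axis, percent, number of matched genes in brackets) with an OSC-only distal region (blue) and with a distal region open in every library (orange). The Wnt bar is 52.9% against 0, and all annotated genes have 2.87% for OSC-only regions.

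Several of the strongest regions lay over annotated mobile elements. By the lowest of the 4 OSC folds, 5 of the first 10 regions and 6 of the first 100 overlapped such an element, against 27 of all 777 (3.47%) and 3.20% of the regions open in every library. The strongest 2 and the ninth lay in the same springer retrotransposon on 3L, assigned to isoQC. The first of these (3L 20477425 to 20477636) had folds of 14.7 and 12.96 in wild type and 15.8 and 17.9 in the knockout, and the second (3L 20481456 to 20481679) had 20.9 and 16.6 in wild type and 15.6 and 12.3 in the knockout. The third, beside Marf1 over a gypsy12 element (2L 22281942 to 22283023), had 17.2 and 14.6 in wild type and 12.2 and 15.6 in the knockout. The fourth, beside TpnC41C and also over annotated mobile elements (2R 5055270 to 5055751), had 13.5 and 11.3 in wild type and 11.5 and 13.5 in the knockout. Whether cells and flies carry the same number of these copies was not tested.

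The other 5 of the first 10 regions lay outside annotated mobile elements. The fifth, in an intron of Myo81F (3R 2087623 to 2088757), had folds of 16.8 and 10.8 in wild type and 13.3 and 14.5 in the knockout, and the promoter of this gene had no OSC peak. The seventh, in an intron of GEFmeso (2R 18572762 to 18573415), had 11.4 and 10.7 in wild type and 10.5 and 11.9 in the knockout. The eighth, in an intron of lncRNA:CR44909 (2L 20585519 to 20586119), had 11.3 and 9.87 in wild type and 10.1 and 12.7 in the knockout, and the tenth, beside lncRNA:CR44636 (2R 20139367 to 20139992), had 12.4 and 8.73 in wild type and 9.79 and 12.3 in the knockout. At all 5 the values of the genotypes overlapped. The strongest intergenic region outside a mobile element was the one nearest to CG5103 (3L 18280926 to 18281419), 12843 bp from a TSS, with folds of 12.5 and 10.5 in wild type and 11.4 and 13.1 in the knockout.

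The loss of l(3)mbt was then compared at the 777 regions. The rule did not use the difference between genotypes, but it required a −log10 q of at least 10 in every OSC library. A region closed or strongly weakened in either genotype could not be a member, so large differences were limited in advance. The comparison covers only regions that stayed open in both genotypes. After the log2 fold enrichment of each library was centred on its median over the 13767 intervals with a peak in all 4 OSC libraries, the median of the OSC-only regions was 0.27 and 0.08 in the wild-type libraries and 0.14 and 0.00038 in the knockout libraries. The groups overlapped. The difference, knockout minus wild type, was −0.11 (exact permutation test over 4 libraries, two-sided p = 0.667, where the smallest p that this design allows is 0.333). The regions open in every library differed by −0.13 (exact permutation p = 0.667). Without centring, the difference at the OSC-only regions was 0.04, so that its sign depended on the scaling.

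Region by region, limma called 0 of the 777 regions and 0 of all 13767 intervals (0%) at a Benjamini-Hochberg adjusted p under 0.05. These intervals all had a peak in each of the 4 OSC libraries, so peaks gained or lost in the knockout were not tested. Working from reads, the paper reported regions that became more accessible in the knockout OSCs, among them the ovo promoter. The result for peak folds therefore does not show that the knockout left accessibility unchanged. At an unadjusted p under 0.05 there were 45 OSC-only regions (5.79%), against 3.78% of all intervals. Differences of at least 1.5-fold with no overlap between the genotypes were found at 11 OSC-only regions with higher knockout values (1.42%, against 1.43% of all intervals) and at 30 with lower knockout values (3.86%, against 2.11%). Without wild-type replicate 2, limma called 72 of the regions (9.27%, with 9 higher and 63 lower), against 7.39% of all intervals, and without wild-type replicate 1 it called 8 (1.03%), against 0.748%. With the replicate number as a block it called 22 (2.83%), against 1.78%, although these numbers are not known to pair the libraries. In the fits without a wild-type library the wild-type arm is 1 library that is assumed to vary like the knockout pair.

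The largest differences are given as values, since none passed the test. In an intron of Ugt50B3, a glucuronosyltransferase gene, the region at 2R 5537463 to 5537711 had folds of 7.40 and 11.5 in wild type and 3.20 and 4.03 in the knockout, a centred log2 difference of −1.51 (SE 0.25, limma adjusted p = 0.158). The region beside CG1529 (X 21032956 to 21033551) had 6.22 and 5.56 in wild type and 2.70 and 3.20 in the knockout, a difference of −1.15 (SE 0.28, limma adjusted p = 0.549). Both lay over annotated mobile elements, G4 at Ugt50B3 and Quasimodo with a second element at CG1529. In an intron of fra, a netrin receptor gene, the region at 2R 12539965 to 12540727 had 5.61 and 9.27 in wild type and 3.61 and 4.35 in the knockout. The nrm and Prx1 regions were also lower in both knockout libraries, by centred log2 differences of −0.93 and −0.88.

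In the other direction, an intronic region of Sema2b, a secreted semaphorin gene (2R 16412543 to 16413126), had folds of 3.97 and 3.83 in wild type and 7.02 and 10.2 in the knockout, a centred log2 difference of 0.97 (SE 0.25, limma adjusted p = 0.739). An intronic region of beat-IIIc, an immunoglobulin-domain gene (2L 17224624 to 17225228), had 3.38 and 4.83 in wild type and 6.35 and 10.9 in the knockout. The regions at Cadps, CG34355 and lncRNA:CR43681 were higher by 0.87, 0.74 and 0.68, and that at Cadps lay over telomeric and other mobile elements of chromosome 4.

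**Figure D5:**
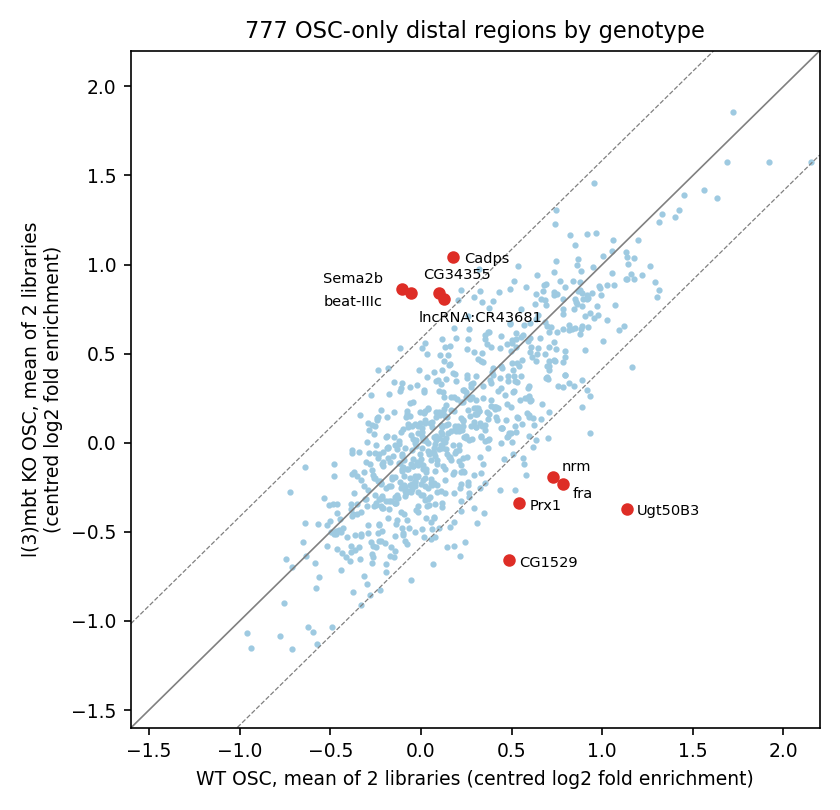
Centred log2 fold enrichment of the 777 OSC-only regions, mean of the 2 wild-type libraries (x axis) against mean of the 2 l(3)mbt knockout libraries (y axis). The solid line marks equal values and the dashed lines 1.5-fold differences; red points are the 5 largest differences in each direction among regions whose genotypes did not overlap, and 0 regions passed the limma threshold.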

How the data were processed

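The authors trimmed reads with cutadapt 1.18, aligned them to dm6 with BWA, marked duplicates with Picard 2.9.0, filtered with SAMtools 1.9 and called peaks in each library with MACS2 2.1.1.20160309. The deposited lists give, for each peak, its fold enrichment (a ratio of summit pileup to the local background of the same library) and the −log10 of the q-value, neither scaled between libraries. Read totals are not part of these lists, so that depth is unknown. The authors' table of accessibility changes between OSC lines holds fold changes and adjusted p-values and was not used, and their lists from merged ovary replicates were used only as a further description.

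Overlapping peaks (at least 1 bp) were joined, and the highest fold and −log10 q per interval and library were kept. TSSs, coding sequence and genes came from Ensembl release 115 (18277 genes, mobile elements apart, 24111 TSSs), sequences from the RefSeq copy of the same assembly, and coordinates are 1-based on dm6. Log2 fold enrichments without a pseudocount, centred on each library's median, were fitted with limma 3.58.1 in R 4.3.3 over 13767 intervals with Benjamini-Hochberg adjustment, without a replicate block. Library medians were compared by exact permutation in Python 3.11.15. The fit was tested on simulated data. The members, the 18 gene lists (255 of 258 genes matched) and the 31 motifs were chosen with earlier results of these data known. The rule for named regions took the 10 with the highest lowest-of-4 fold, those of the 5 genes with most regions, up to 3 per list, the 3 longest runs, the 5 largest genotype differences each way without overlap, and the 3 on each side of the threshold, and some of these are given by counts only; other Wnt regions, CG42238, croc and the printed windows were chosen after their values were seen. Alternatives were the TSS distance, the −log10 q minimum, coding overlap, the merged ovary lists, summit windows, gene assignment, scaling, the motif window and leaving out each library.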

Additional observations from a re-analysis of the deposited data

Results flagged for a closer look

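Peaks called by the authors on merged ovary replicates, which the choice of regions did not use, overlapped some of the OSC-only regions. The merged w1118 list had a peak at 14 regions and the merged vas-GFP list at 19, and 0 regions had one in both. Folds of these merged peaks ran from 1.64 to 3.45 in w1118 (median 2.28) and from 1.80 to 3.27 in vas-GFP (median 2.19). The highest were beside Tpr2 in w1118, with 3.45 against a lowest OSC fold of 3.72, and beside lncRNA:CR44197 in vas-GFP, with 3.27 against 8.37. At px (3.13 against 2.38) and bif (2.165 against 2.101), both in w1118, the merged ovary fold was above the lowest OSC fold. The merged peaks at Paics (vas-GFP), sgg and Tpr2 (both w1118) had a −log10 q of 16.5, 12.4 and 12.1, above the minimum of 10 that was used for the OSC libraries. All 656 regions open in every library had a peak in both merged lists.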

How the results depend on the processing

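The number of OSC-only regions depended on the −log10 q minimum, with 1341 at a minimum of 5 and 383 at 20 in place of 777, and the regions with a merged ovary peak then numbered 50 and 11 in place of 33. Under the other alternatives the number lay between 624 and 851, and between 781 and 1052 when a library was left out. Regions with a merged ovary peak numbered 34 to 71 when a library was left out. Over all settings, which hold overlapping sets of regions, the intron share was 62.0% to 65.5% and the X share 16.7% to 20.3%. The share with a promoter open in all ovary libraries was 65.8% to 69.1%, except with the nearest TSS for every region (56.0%). The knockout difference in library medians was −0.11, was reversed without centring (0.042) and ran from −0.20 to −0.01 when an OSC library was left out. The replicate numbers are not known to pair the libraries, since names inside the peak lists call the second libraries replicate 3 (wild type) and replicate 4 (knockout). Same-numbered deviations correlated at r = 0.49 over 13767 intervals, and with a replicate block limma called 22 regions (2.83%) in place of 0 (5 higher and 17 lower in the knockout), against 1.78% of all intervals, while the difference in medians stayed at −0.11 (exact paired permutation p = 0.5). Leaving out an OSC library gave 0 to 72 called regions and 0 to 1017 called intervals in all. The cause of these changes was not tested. For the 12 motifs with the largest differences, none of 36 alternatives (3 per motif) changed the sign, and 11 moved the difference by over 1.5 times. Sox fell from 5.23 to 1.21 percentage points with a 500 bp window, the homeodomain site from 2.901 to 0.71 with 200 bp, and forkhead was at 6.68 in place of 4.10 with a −log10 q minimum of 20. The other motifs were counted in one setting. Since depth is unknown, an ovary signal under the calling threshold cannot be seen.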
